A study of Mus musculus with 39 samples.

Results

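FI2 and FI3 are subsets of ankle synovial macrophages with intermediate F4/80 staining, sorted by flow cytometry from arthritic mice labelled HUPO. The members were the 3 FI2 and the 3 FI3 libraries of those mice, 6 of 39 libraries in the series, chosen by their sample labels and not by any measured value. The mice were C57BL/6, between 21 and 37 weeks old, with the genotype Flipflox/floxCD11ccre: both alleles of Flip (symbol Cflar) were floxed, and a cre recombinase was expressed under CD11c, which dendritic cells and several macrophages share. No treatment was given in the labels, and arthritis was described as established. The same 3 numbers occur in the sample titles of both subsets and were read as animal numbers, which the labels do not spell out. Each FI2 library thus has an FI3 library of the same number, and the animals are called the first, the second and the third in rising order of that number. FI2 was profiled only in HUPO mice. For orientation, levels are also given in HUPO FI1, a further F4/80-intermediate subset carrying the same 3 numbers, in blood classical monocytes (CM) of other HUPO mice, and in FI3 of control mice (Flipflox/floxCD11c+, same strain and age range), each with 3 libraries. Beyond F4/80, the staining that separates FI2 from FI3 is not given in the sources used here, so a gene whose product was part of that gate would differ because of the sort.

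Classical monocytes carry Ly6C and the receptor CCR2, leave the blood for inflamed tissue, and can become macrophages there. As they do so they usually lose Ly6C and gain genes of settled macrophages, such as those of complement C1q, of lipid transfer and of the response to interleukin-4. In arthritic joints, cells of the same lineage can also become osteoclasts, which resorb bone with the protease cathepsin K and an acid phosphatase.

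Depth was 3116615 to 13257994 counts per library, with at least 1 count for 8092 to 9638 genes. From the first to the third animal, FI2 had 9335, 8092 and 8932 genes detected at 8188769, 6271059 and 13257994 counts. FI3 had 9523, 9241 and 9638 at 3116615, 8440714 and 7042567 counts. Fewer genes were thus detected in FI2 than in FI3 of each animal. How this relates to the genes at 0 in 1 subset was not tested. Levels are CPM, a gene's count scaled to a fixed library total after adjustment by trimmed means (TMM), given in the order of the first, the second and the third animal, and as mean ± SD with n = 3. For a gene at 0 counts in all 3 libraries, counting error alone allows a level of up to 0.121 CPM (FI2) or 0.168 CPM (FI3). These levels are 3 counts over the group. The spread between libraries is not part of this bound, nor of the folds given below as "at least". Both subsets had macrophage transcripts: Lyz2, encoding lysozyme, was at 26748 ± 2766 CPM in FI2 and 24389.7 ± 848 in FI3, and Csf1r, the receptor for the macrophage growth factor CSF1, at 1564 ± 192 and 1338 ± 173. Itgam, encoding CD11b, was at 1103 ± 199 and 949 ± 185. The T cell gene Cd3e had no counts in any of the 6 libraries.

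Windows around the start sites of 4 of the genes described below are shown first: Ly6c2 and Chi3l3, which were higher in FI2, and Pltp and Retnla, which were higher in FI3. They are RefSeq sequence of build GRCm38.p6, from 250 bases before to 50 bases after the start, written 5′ to 3′ on the gene's strand. Capitals mark, on either strand, the letters TTGCNNAA (a C/EBP motif), TTC and GAA with 4 bases between them (a STAT6 motif) or GAGGAAG (a PU.1 motif). These motifs were found in 10.8%, 6.95% and 13.6% of 32851 such windows. Ly6c2 is shown in the first of 2 listed windows, chr15:75111922-75112221 (minus strand), Chi3l3 (now Chil3) at chr3:106167515-106167814 (minus), Pltp at chr2:164857659-164857958 (minus) and Retnla at chr16:48842359-48842658 (plus).
Ly6c2: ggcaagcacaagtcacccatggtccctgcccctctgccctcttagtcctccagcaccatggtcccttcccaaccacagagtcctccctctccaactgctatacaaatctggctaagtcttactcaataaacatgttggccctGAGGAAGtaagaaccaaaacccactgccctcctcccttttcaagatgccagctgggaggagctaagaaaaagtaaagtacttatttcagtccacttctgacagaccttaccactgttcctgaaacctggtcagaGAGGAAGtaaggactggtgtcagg
Chi3l3: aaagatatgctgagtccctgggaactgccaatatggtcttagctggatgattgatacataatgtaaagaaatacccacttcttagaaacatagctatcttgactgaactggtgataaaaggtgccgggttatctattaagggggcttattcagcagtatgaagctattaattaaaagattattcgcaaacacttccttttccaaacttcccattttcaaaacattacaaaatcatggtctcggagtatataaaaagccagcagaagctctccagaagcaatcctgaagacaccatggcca
Pltp: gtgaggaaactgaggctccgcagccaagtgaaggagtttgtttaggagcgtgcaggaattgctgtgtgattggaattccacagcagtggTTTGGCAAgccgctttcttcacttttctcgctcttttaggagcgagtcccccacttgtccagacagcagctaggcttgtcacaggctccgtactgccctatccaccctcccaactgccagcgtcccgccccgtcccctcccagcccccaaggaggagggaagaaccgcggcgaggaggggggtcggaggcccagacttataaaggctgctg
Retnla: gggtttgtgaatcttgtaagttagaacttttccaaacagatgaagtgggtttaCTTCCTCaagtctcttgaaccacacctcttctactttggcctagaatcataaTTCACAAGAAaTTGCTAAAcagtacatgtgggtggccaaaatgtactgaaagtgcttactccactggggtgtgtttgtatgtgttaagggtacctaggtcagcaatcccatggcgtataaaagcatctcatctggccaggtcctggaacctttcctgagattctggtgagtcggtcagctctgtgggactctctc
The Ly6c2 window held 2 PU.1 matches, the Pltp window 1 C/EBP match, and the Retnla window 1 match of each motif, with the STAT6 and C/EBP letters 1 base apart. The Chi3l3 window held none of these letters. A match is a description of the letters and not a bound site.

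The subsets were alike in most genes. Of 4806 genes with a mean of at least 32 CPM over the 6 libraries, 4128 (85.9%) differed less than 2-fold between the FI2 and FI3 means. Across these genes the log2 mean levels of FI2 correlated with those of FI3 at r = 0.853, with HUPO FI1 at 0.756, with control FI3 at 0.662 and with HUPO CM at 0.571. These are correlations across genes, which are not independent replicates. The genes were chosen by their level in FI2 and FI3 only, which can favour the correlation between these 2 subsets over those with other groups. Pairs of libraries correlated at 0.613 to 0.714 within FI2, 0.730 to 0.765 within FI3 and 0.587 to 0.736 between them. The range between the subsets therefore covered the whole range within FI2.

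A fit of all 39 libraries (edgeR quasi-likelihood, Benjamini-Hochberg adjusted p under 0.05 over 12450 genes) called 1 gene, Ly6c2, higher in FI2 (0.00803% of genes tested) and none lower. At an unadjusted p under 0.05 this fit had 278 genes higher and 513 lower in FI2. DESeq2, at an adjusted p under 0.05, called 296 higher and 548 lower. When the animal number was added as a block to the 15 HUPO ankle libraries, 28 of 10861 genes (0.258%) were called, 16 higher in FI2 (0.147%) and 12 lower (0.110%). The same 15 libraries without the block gave 18 calls, of which 15 were among the 28, and the other 13 of the 28 were called in these libraries with the block but not without it. Libraries of the same number deviated together only weakly, and blocked fits without 1 library called 4 to 16 genes. The 3 FI2 and 3 FI3 libraries did not overlap for any of these 28 genes. Below, "called" means called in the blocked fit, and its adjusted p is the one printed, unless the fit of 39 libraries is named. For genes that were not called, the text gives whether the libraries overlapped: 685 of 12450 genes (5.50%) were higher in all 3 FI2 libraries than in any FI3 library and 843 (6.77%) were lower. With plain library totals in place of TMM these were 542 and 1029. Genes of higher level separated more often: 908 of the 4806 with a mean of at least 32 CPM did not overlap, against 1528 of all 12450 (12.3%), both directions together. Of the 28 genes, Ly6c2, F13a1 and Retnla were called again in each of 6 blocked fits that left out 1 library. C4b and Ifi27l2a were called again in 5 and Gm11428 in 3. Most of the others, Chi3l3, Pltp, C1qa and Folr2 among them, were called in none of these 6 fits, and the rest in 1 or 2. With 3 libraries against 3, the smallest p that an exact 2-sided permutation test allows for 1 gene is 0.1.

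**Figure D1:**
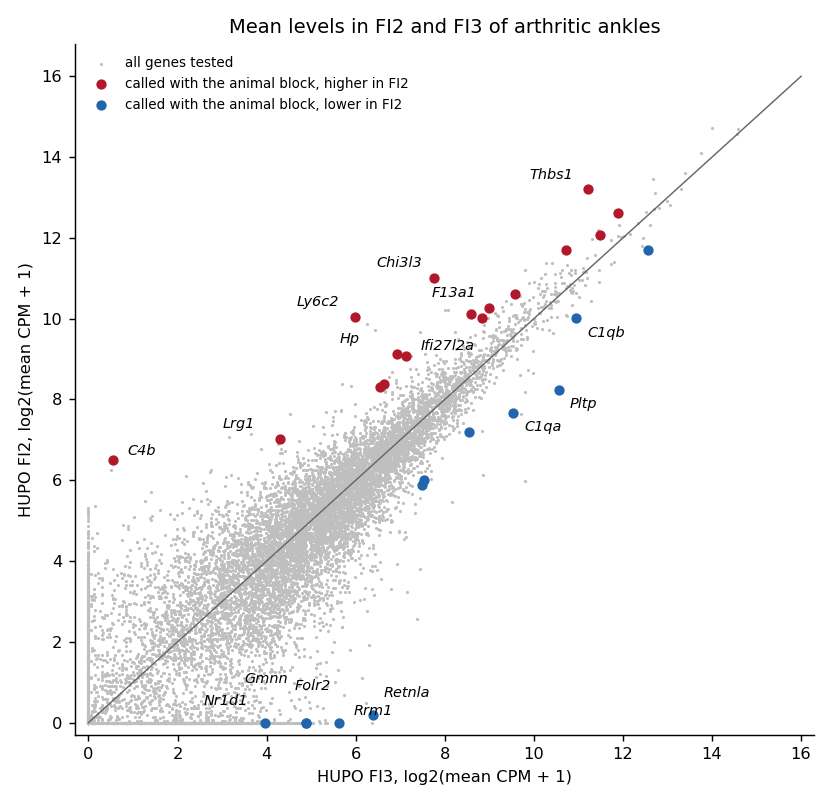
Mean level of each of the 12450 genes in FI3 (horizontal axis) and FI2 (vertical axis) of HUPO ankles, as log2(mean CPM + 1), with 3 libraries behind each mean. Coloured points are the 28 genes called with the animal as a block, 16 higher (red) and 12 lower (blue) in FI2, and the line marks equal levels.

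The genes that rose in FI2 relative to FI3 included several of classical monocytes. In bulk libraries such as these, fewer cells of a type and less RNA per cell cannot be told apart. Ly6c2 (chromosome 15, 75108161 to 75112066 in GRCm38), encoding the Ly6C antigen by which classical monocytes are recognised, was at 1175, 1293 and 700.4 CPM in FI2 and at 73.3, 51.7 and 60.7 CPM in FI3. The lowest FI2 library thus stood far above the highest FI3 library. The mean was 17.1-fold higher in FI2 (log2 fold change 4.09, SE 0.57, adjusted p = 0.0013 in the fit of 39 libraries and 0.00374 in the blocked fit). Without both libraries of the second animal it was no longer called in the fit of 39 libraries (adjusted p = 0.177, log2 fold change 3.85). FI1 and CM of HUPO mice were higher still, at 3175 ± 543 and 2647 ± 356 CPM, and control FI3 had no counts. Reads of Ly6c2 and its near-identical neighbour Ly6c1 may be shared, and Ly6c1 itself was at 17.1 ± 25.2 CPM in FI2 and 1.40 ± 2.32 in FI3.

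Chi3l3 (Ym1), a secreted chitinase-like protein abundant in mouse monocytes, neutrophils and interleukin-4-treated macrophages, was at 2594, 1817 and 1805 CPM in FI2 against 233, 186 and 228 in FI3. Its mean was 9.61-fold higher in FI2 (log2 fold change 3.28, SE 0.48, adjusted p = 0.0269), and the near-identical Chi3l4 could share its reads. Thbs1, encoding the matrix glycoprotein thrombospondin 1, was among the most abundant transcripts of FI2, at 10028, 9608 and 8593 CPM, and was at 1864, 1917 and 3297 CPM in FI3. It was higher in FI2 in 3 of 3 animals (3.99-fold, adjusted p = 0.0269). Thbs1 was also high in FI1 (5185 ± 1929 CPM) but low in CM (179.7 ± 51.7) and control FI3 (238 ± 109).

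F13a1, encoding the A subunit of clotting factor XIII and expressed by monocytes and some resident macrophages, was at 1442, 1153 and 1114 CPM in FI2 and 664, 442 and 429 in FI3. This difference was smaller, 2.42-fold (blocked SE 0.12 on the log2 scale, adjusted p = 0.00374). That SE rests on a spread shared over the 15 HUPO ankle libraries and does not measure evenness across the animals. F13a1 was not called in the fit of 39 libraries or with DESeq2. Fits of only the 6 libraries did not call it either (adjusted p = 0.144 without the block and 0.105 with it). Hp, encoding the haemoglobin-binding protein haptoglobin, was at 441, 691 and 537 CPM against 132, 166 and 64.1 (4.61-fold, adjusted p = 0.0225). Neither gene overlapped between the subsets, and Hp had no counts in control FI3.

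Of 18 classical monocyte genes tested, 5 were called higher with the block (Ly6c2, Chi3l3, F13a1, Hp and Thbs1) and none lower, and 11 were higher and 2 lower without overlap. The median log2 fold change of the 18 was 1.94, against 0 for all genes tested. Plac8, a small cysteine-rich protein of myeloid cells, was at 989, 1049 and 787 CPM in FI2 and 75.3, 61.9 and 89.5 in FI3. It was not called (adjusted p = 0.373), although the libraries did not overlap. Ms4a4c, a tetraspan membrane protein gene, was likewise not called, at 409 ± 146 and 111 ± 12.4 CPM. The list did not move as a block: Ccr2, the chemokine receptor of classical monocytes, was at 909, 711 and 856 CPM in FI2 and 752, 660.0 and 754 in FI3, which left their ranges overlapping. S100a4, a calcium-binding protein gene, and Fn1, encoding fibronectin, had lower values in all 3 FI2 libraries, at means of 1071 against 1711 CPM and 4094 against 5587 CPM, and were not called (adjusted p = 0.373 and 0.815).

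**Figure D2:**
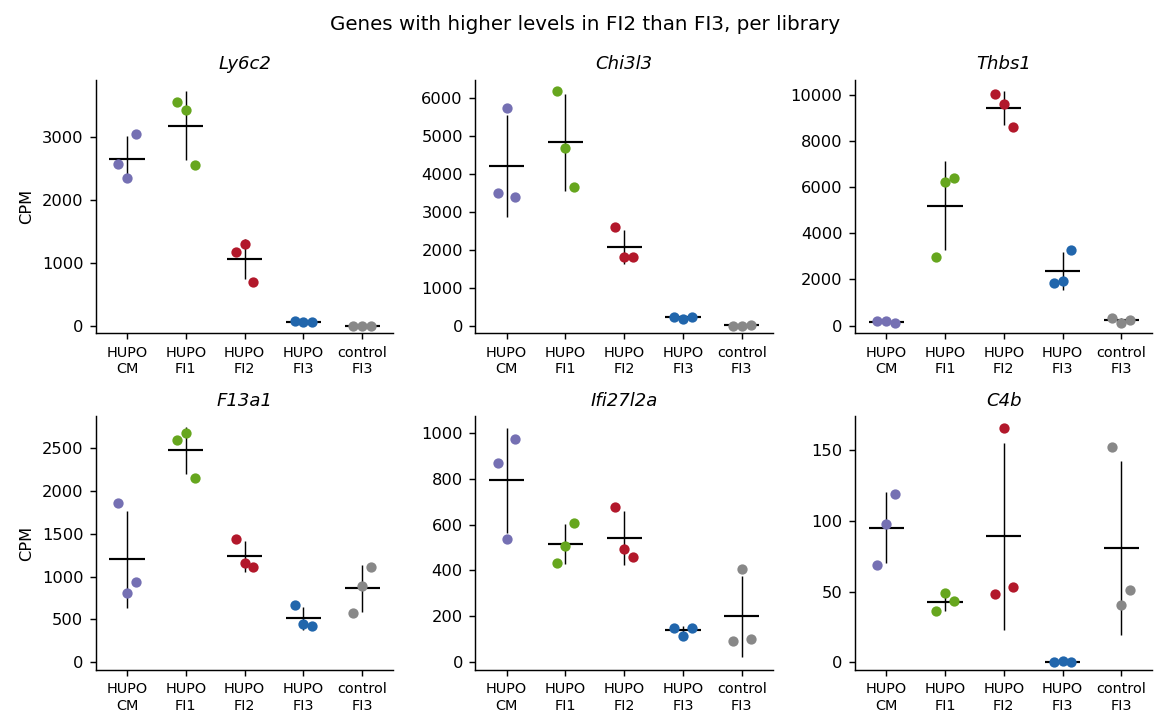
CPM per library (points), mean (horizontal line) and SD (vertical line, cut at 0) of Ly6c2, Chi3l3, Thbs1, F13a1, Ifi27l2a and C4b in classical monocytes (CM), FI1, FI2 and FI3 of HUPO mice and FI3 of control mice, n = 3 each. In each panel the 3 FI2 points lie above the 3 FI3 points.

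Outside that list, 4 further genes that monocytes or inflamed tissues express rose in FI2. Gm11428 (now Wfdc17), a secreted protein of myeloid cells, was at 1322, 1008 and 996 CPM in FI2 and 407, 371 and 379 in FI3 (2.87-fold, adjusted p = 0.00681). Ms4a6b, a membrane protein gene of the MS4A family, was at 331 ± 47.9 and 98.3 ± 28.0 CPM (3.37-fold, adjusted p = 0.0262). Lrg1, a leucine-rich glycoprotein of the acute phase, was at 159, 127 and 104 CPM against 21.8, 22.4 and 12.4 (6.89-fold, adjusted p = 0.0234). Mgst1, a microsomal glutathione transferase, was at 314 ± 116 and 92.0 ± 28.3 CPM (3.41-fold, adjusted p = 0.0378). All of them had their lowest FI2 library above their highest FI3 library, and the CM mean was above the FI2 mean for each.

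Over the 16 genes that rose in FI2, the CM mean was above the FI2 mean for 11 and the FI1 mean for 9. The control FI3 mean was below the FI2 mean for all 16. Over the 12 genes that fell, the CM mean was below the FI2 mean for 6 and the FI1 mean for 6, and the control FI3 mean was above it for all 12. The FI2 values also served to choose these genes, which by itself favours other groups below FI2 for the 16 and above it for the 12. The shares over all genes are not given here, so these counts are descriptions and not tests.

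Neutrophil transcripts went in the same direction as the monocyte genes. The alarmin genes S100a8 and S100a9, which both neutrophils and classical monocytes express, were at 925, 1532 and 1103 CPM and at 984, 1648 and 921 CPM in FI2, against 151, 413 and 206 and 104, 471 and 226 in FI3. The libraries did not overlap, but neither gene was called (adjusted p = 0.143 and 0.227). Ngp, encoding a granule protein that is largely restricted to neutrophils and their precursors, was at 534, 1517 and 405 CPM in FI2 and 92.4, 324 and 106 in FI3. Elane, encoding neutrophil elastase, was at 25.4, 18 and 22 CPM against 2.04, 0 and 0, and FI1 stood far above both subsets for it, at 733 ± 194 CPM. Of 20 neutrophil markers tested, 15 were higher and 1 lower in FI2 without overlap, none was called in either fit, and the median log2 fold change was 2.95. Their summed level was 3527, 6786 and 3433 CPM in FI2, 687, 1882 and 1074 in FI3, 18579 to 27319 in FI1 and 401.7 to 4401 in CM. The receptor gene Cxcr2, which defines mature neutrophils, had counts in 1 FI2 library (14.9 CPM) and in no FI3 library. How far neutrophil RNA enters the values of Hp, Lrg1, Chi3l3 and the other shared genes was not tested.

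Many inflammatory mediators had higher levels in FI2, with no call in either fit. Of 28 cytokines and NF-kB targets tested, 11 were higher in all FI2 libraries and none lower (median log2 fold change 0.73). Il1b, encoding interleukin-1 beta, was at 6879, 3511 and 3710.0 CPM in FI2 and 3055, 2289.6 and 2935 in FI3. Il1rn, which encodes the antagonist of the same receptor, was at 3239, 2133 and 1681 CPM against 1228, 677 and 774. The monocyte chemoattractant gene Ccl2 was at 820.5, 312 and 535 CPM against 249, 115 and 193. All 3 separated the subsets, and the adjusted p closest to the threshold was that of Ccl2 (0.0829, with 0.716 for Il1b and 0.241 for Il1rn). Tnf was lower in both, at 90.2 ± 40.7 and 29.3 ± 6.02 CPM, and Cxcl2, a neutrophil-attracting chemokine gene, was at 1847 ± 322 and 1113 ± 276. In control FI3, Il1b (3469 ± 817 CPM) and Ccl2 (647 ± 112) had higher means than in HUPO FI3.

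Receptors that sense microbes and damage leaned the same way. Clec7a, encoding the beta-glucan receptor dectin-1, rose in FI2, at 3244, 3192 and 3619 CPM against 1519.6, 1509 and 2037 (1.98-fold, adjusted p = 0.0225). Of 26 Toll-like and C-type lectin receptors and their partners, this was the only call, and 7 were higher and none lower without overlap. Cd14, the lipopolysaccharide co-receptor, was at 11956, 10243 and 11624 CPM in FI2 and 6491, 6320.2 and 6955 in FI3 and was not called (adjusted p = 0.185), nor was Clec4e, encoding Mincle, at 2679 ± 551 and 1241 ± 161 CPM (adjusted p = 0.297). Among 23 Fc, CD300 and paired receptors 7 were higher and none lower without overlap, and none was called. Fcgr1, the high-affinity IgG receptor gene, overlapped, at 708, 257 and 379 CPM against 259, 146 and 180.4. Cebpb, a transcription factor of monocytes and of acute inflammation, rose by 0.58 on the log2 scale (SE 0.10, 4276 ± 366 against 2864 ± 226 CPM, adjusted p = 0.0448).

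The remaining genes that rose in FI2 were spread over other roles. Tgfbi, encoding a TGF-beta-induced matrix protein, was at 6302 ± 387 and 3795 ± 312 CPM (1.66-fold, adjusted p = 0.0448). Coro1a, an actin regulator of leukocytes, was at 1572 ± 106 and 768 ± 121 CPM (2.05-fold, adjusted p = 0.033). Prdx5, a peroxidase of mitochondria and peroxisomes, was at 1038 ± 165 and 454 ± 95.3 CPM (2.29-fold, adjusted p = 0.0225). Their ranges did not overlap. Fth1, encoding the heavy chain of the iron store ferritin, was one of the most abundant transcripts of both subsets, at 29486, 23108 and 27890.3 CPM against 17811, 15949 and 15533, and was not called (adjusted p = 0.294).

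An interferon-stimulated gene was called as well. Ifi27l2a, a small protein induced by type I interferon, was at 677, 493 and 458 CPM in FI2 and 151, 117 and 151 in FI3 (3.89-fold, log2 fold change 1.96, blocked SE 0.20, adjusted p = 0.00481). It was as high in FI1 (515 ± 86.1 CPM) and higher in CM (792 ± 229). Of 28 interferon-stimulated genes tested, 8 were higher and none lower in FI2 without overlap (median log2 fold change 0.76), and the others were not called. Ifi204, a nucleic acid sensor gene, was at 352, 338 and 176 CPM against 172, 96.2 and 67.9, and the third animal had the lowest value in both subsets.

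Complement genes went in opposite directions. C4b, encoding complement C4, rose in FI2, at 48.6, 166 and 53.2 CPM against 0, 1.11 and 0.291 in FI3 (blocked log2 fold change 7.31, SE 0.81, adjusted p = 0.0068). The FI3 level rested on 11 counts, the FI2 level on 1938, and reads may be shared with the near-identical C4a. Control FI3 held C4b at 81.2 ± 61.5 CPM, a level like that of FI2. C1qa and C1qb, which encode chains of the recognition molecule C1q made largely by macrophages, fell in FI2. C1qa was at 221, 176 and 204 CPM in FI2 and 969.6, 660.1 and 598 in FI3 (3.70-fold, adjusted p = 0.0225), and C1qb at 1235, 1046 and 801 against 2299, 2029.9 and 1596 (1.92-fold, adjusted p = 0.0121). The third chain, C1qc, had the same order without a call, at 399 ± 109 and 1014 ± 329.6 CPM (adjusted p = 0.61). FI1 was almost without C1q transcripts (C1qa 0.139 ± 0.241 CPM), and control FI3 was like HUPO FI3 (647 ± 201). Of 13 complement genes, 3 were higher and 4 lower in FI2 without overlap. C5ar1, encoding the receptor for the anaphylatoxin C5a, was among the higher ones, at 1313 ± 181 and 715 ± 131 CPM (adjusted p = 0.119).

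Several genes of settled macrophages fell in FI2. Retnla, encoding the secreted RELM-alpha, a textbook product of interleukin-4-treated mouse macrophages, was at 0, 0.345 and 0.0829 CPM in FI2, 3 counts in all, and at 93.7, 31.2 and 122 CPM in FI3. The pooled FI3 level was 631 times that of FI2, with an exact 95% counting interval of 215.5 to 3064, and Retnla fell in the blocked fit (adjusted p = 0.00374). Control FI3 held far more, 5286 ± 1794 CPM, while FI1 and CM had no counts. Folr2, encoding the folate receptor beta of tissue macrophages, had no counts in FI2 and 27.3, 27.7 and 30.5 CPM in FI3, so that FI2 was at least 235-fold lower (adjusted p = 0.0262). Mgl2, a galactose-binding lectin of dendritic cells and interleukin-4-treated macrophages, also had no counts in FI2 and had 69.2, 43.1 and 131 CPM in FI3 without a call (adjusted p = 0.386).

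Pltp, encoding the phospholipid transfer protein that remodels lipoproteins, had the largest fall among the called genes with counts in all 6 libraries. It was at 345, 177 and 379 CPM in FI2 and at 1543, 1409 and 1571 CPM in FI3 (5.02-fold, blocked log2 fold change -2.41, SE 0.36, adjusted p = 0.0269). The FI3 libraries were even and stood at the level of control FI3 (1329 ± 288 CPM), and FI1 and CM were lower than FI2. Cd63, a tetraspanin of lysosomes and exosomes, was at 147 ± 30.6 and 371 ± 14.8 CPM and fell (2.53-fold, adjusted p = 0.0276). Of 28 resident macrophage genes, 10 were lower and 3 higher in FI2 without overlap (median log2 fold change -1.42). C1qa, C1qb and Folr2 were called lower, and F13a1, which is also a monocyte gene, was called higher. Emr1, described below, is also on this list and was higher in FI2 without overlap and without a call. The summed level of the list was lower in FI2 for each animal, but the subsets overlapped. The sums were 7727, 6990 and 6452 CPM in FI2 and 9436, 7112 and 6863 in FI3. Trem2, a lipid receptor of tissue macrophages, was at 88.8, 56.6 and 102 CPM against 217, 213 and 168 and was not called (adjusted p = 0.189). The markers of lining and long-lived macrophages Lyve1, Timd4 and Vsig4 were at or near 0 in FI2 and in at least 1 of the FI3 libraries.

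Of 17 interleukin-4-induced genes, 5 were higher and 3 lower in FI2 without overlap (median log2 fold change 0.07), so Retnla and Mgl2 on the one side and Chi3l3 on the other did not move together. Tgm2, encoding transglutaminase 2, was on the side of Chi3l3, at 1609, 1225 and 906 CPM against 704, 644 and 508 (adjusted p = 0.697). The chemokine genes Ccl17 and Ccl22, made by dendritic cells and interleukin-4-treated macrophages, were at 8.35 ± 13.1 and 142 ± 112 CPM and at 0 and 26.8 ± 9.99 CPM, and were not called (adjusted p = 0.557 and 0.736). Of 24 dendritic cell markers, none was higher and 3 were lower in FI2 without overlap (Mgl2, Ccl17 and Ccl22), and their summed level was 1308 to 2023 CPM in FI2 and 1452 to 2109.5 in FI3. Flt3, which defines conventional dendritic cells, was at 0 in FI2 and at 0, 13.7 and 11.8 CPM in FI3. The part of dendritic cells in these values was not tested.

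**Figure D3:**
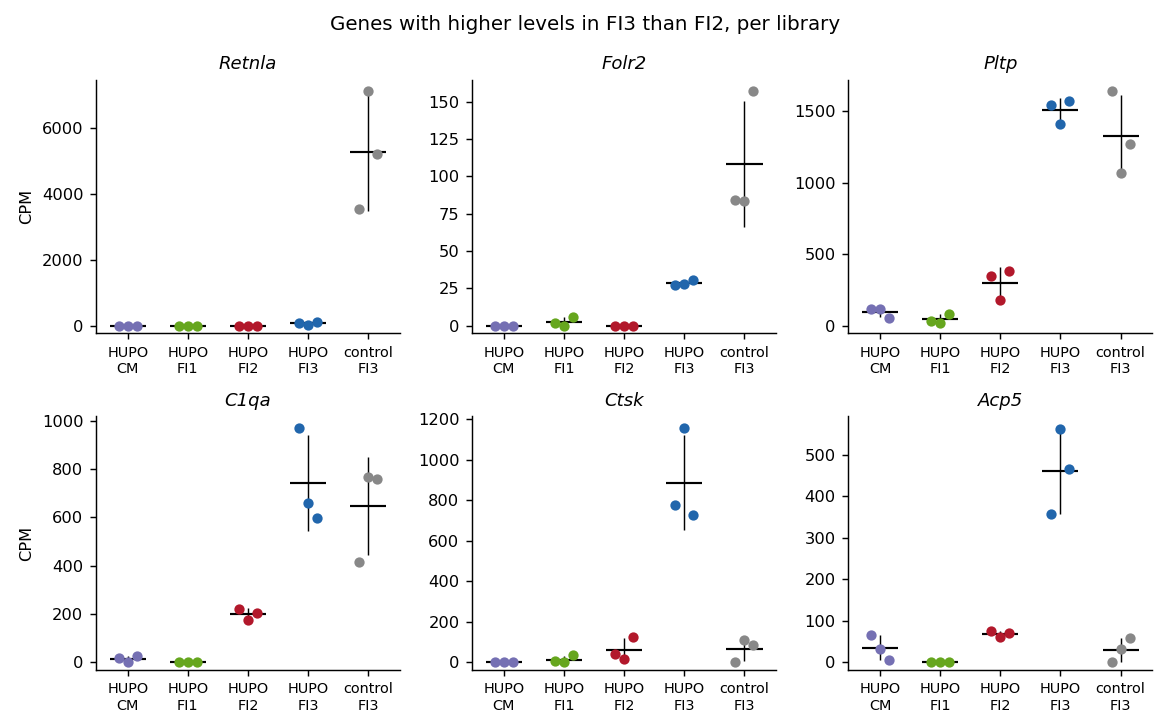
CPM per library (points), mean and SD (lines) of Retnla, Folr2, Pltp, C1qa, Ctsk and Acp5 in the same 5 groups, n = 3 each. The 3 FI3 points of HUPO mice lie above the 3 FI2 points in each panel, and Ctsk and Acp5 are higher in HUPO FI3 than in control FI3.

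Some genes of osteoclasts had higher levels in FI3, without a call. Ctsk, encoding cathepsin K, the main collagen-degrading protease of osteoclasts, was at 43.4, 15.7 and 128 CPM in FI2 and 777, 1157 and 730.0 in FI3. Acp5, the tartrate-resistant acid phosphatase, was at 75.7, 60.1 and 70.1 CPM against 356, 562 and 464, and Mmp9, a gelatinase, at 55.4, 33.0 and 41.9 against 150.0, 397 and 311. The subsets were well apart for each of them, by 14.3-fold, 6.71-fold and 6.58-fold in the means, but the blocked fit gave adjusted p = 0.173, 0.286 and 0.908 and called none. Atp6v0d2, a proton pump subunit of osteoclasts, was at 14.9, 0 and 0 CPM against 125, 227 and 146 (adjusted p = 0.373). In control FI3 the levels of Ctsk (66.2 ± 57.1 CPM), Acp5 (30.4 ± 29.3) and Atp6v0d2 (2.81 ± 4.86) were like those of FI2. Of 14 genes of the list tested, 5 were lower in FI2 and none higher without overlap (median log2 fold change -0.62). The regulator Nfatc1 was alike, at 211 CPM in FI2 and 251 in FI3, as was Tnfrsf11a, the receptor RANK, at 71.6 and 81.7, each with overlapping libraries.

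**Figure D4:**
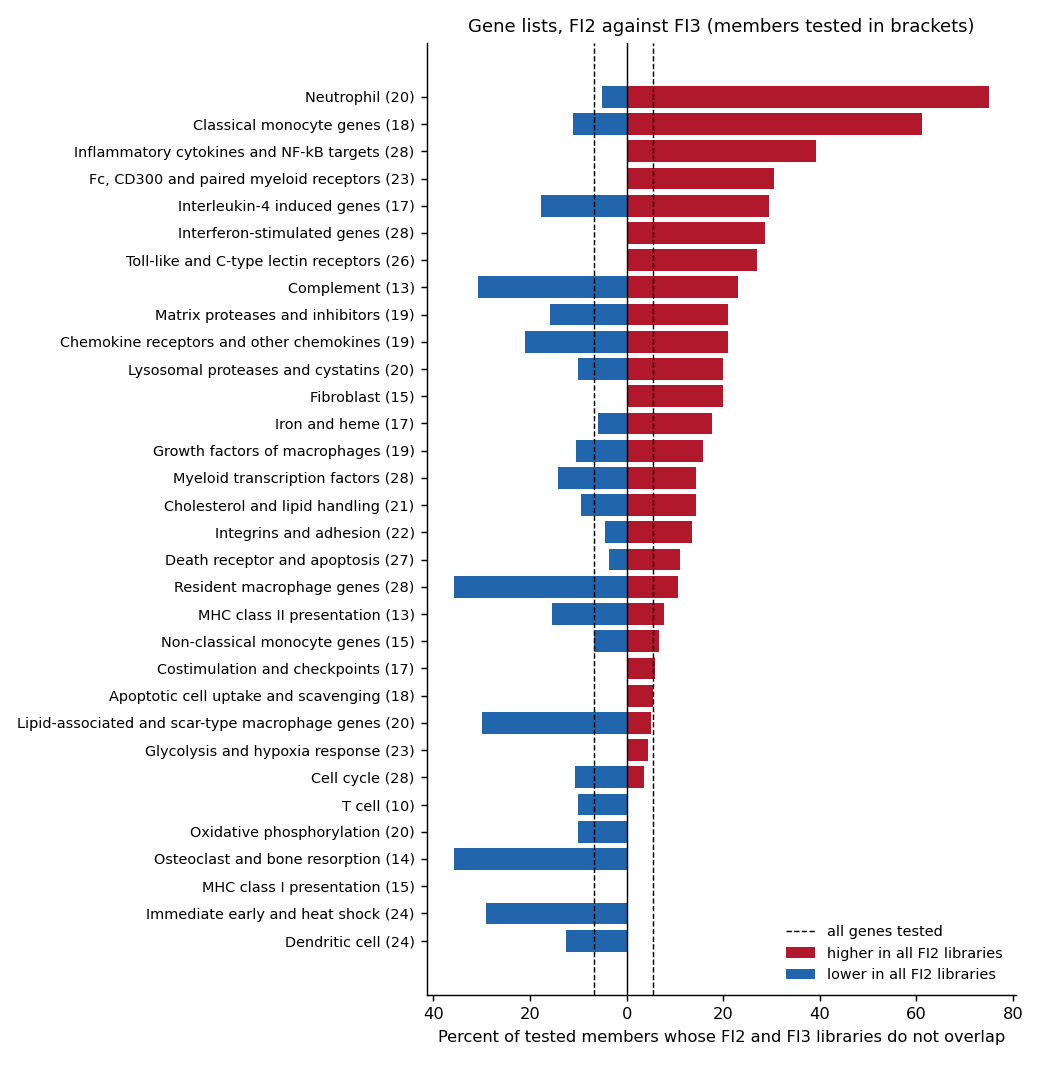
Percent of the tested members of each gene list (number in brackets) whose 3 FI2 libraries all lay above (red, right) or all below (blue, left) the 3 FI3 libraries. Dashed lines mark the same shares over all genes tested, 5.50% above and 6.77% below, and lists with under 10 tested members are left out. The share was larger among genes with a mean of at least 32 CPM (908 of 4806, both directions together).

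Cell cycle genes were mostly low. Rrm1, the large subunit of ribonucleotide reductase, had no counts in FI2 and 19.8, 47.4 and 78.1 CPM in FI3, so that FI2 was at least 400.0-fold lower (adjusted p = 0.0276), and Tubb5, a beta-tubulin, fell from 179 ± 23.9 CPM in FI3 to 57.7 ± 20.9 (adjusted p = 0.0384). Gmnn, encoding the replication licensing inhibitor geminin, also had no counts in FI2, against 51.5, 24.8 and 8.73 CPM (at least 234-fold lower, adjusted p = 0.0365). The standard proliferation markers did not follow. Mki67 was at 0, 9.67 and 0.746 CPM in FI2 and 48.1, 0 and 0.727 in FI3, and Top2a at 0, 94.6 and 30.9 against 1.70, 22.8 and 79.3. Of 28 cell cycle genes, 2 were called lower, none higher, and 3 were lower and 1 higher without overlap. FI1 was above both subsets for Mki67 (193 ± 109 CPM) and Top2a (316 ± 71.0).

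The last 3 genes that fell in FI2 have unlike roles. Nr1d1, the circadian repressor REV-ERB alpha, had no counts in FI2 and 15.7, 21.0 and 7.27 CPM in FI3, so that FI2 was at least 121-fold lower (adjusted p = 0.0225). Slc25a4, the mitochondrial ADP/ATP carrier, was at 63.5 ± 19.4 and 185 ± 32.5 CPM (adjusted p = 0.0376), and Crip1, a small LIM-domain protein gene, at 3308 ± 1075 and 6027 ± 828 CPM (adjusted p = 0.0276). Genes at 0 in one subset and present in each library of the other were not rare in these low-input libraries: 108 genes had no counts in FI2 but counts in 3 of 3 FI3 libraries, and 32 the reverse. Of 24 immediate early and heat shock genes, none was higher and 7 were lower without overlap, none was called, and Fos was at 1117, 1024 and 1112 CPM against 1617, 1422 and 2009 (adjusted p = 0.778).

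Of 13 genes of MHC class II presentation tested, 1 was higher and 2 were lower in FI2 without overlap (median log2 fold change -0.23), and none was called. Cd74, the invariant chain of MHC class II, was at 26532, 24894 and 22061 CPM in FI2 and 22539, 24614 and 25847 in FI3, with a log2 difference of 0.01 and a 95% interval of -0.77 to 0.79 in the fit of 39 libraries. H2-Aa, an MHC class II alpha chain, was at 7717 ± 759 and 8145 ± 695 CPM (interval -1.51 to 1.36), and H2-Eb1, a beta chain, at 5647, 5292 and 4433 against 5875, 6724 and 6017 (interval -1.31 to 0.76). H2-Eb1 was lower in FI2 in all 3 libraries and was not called. FI1 was far below both subsets (Cd74 4232 ± 1319 CPM) and control FI3 above them (58448 ± 5436). Spp1, encoding osteopontin, was also abundant in both, at 24478, 14467 and 13516 CPM against 18351, 13922 and 9159, and was at 129 ± 29.8 in control FI3 and 777 ± 501 in FI1. Its interval for FI2 against FI3, -1.89 to 2.57, is wide, so like means here do not show equal levels.

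**Figure D5:**
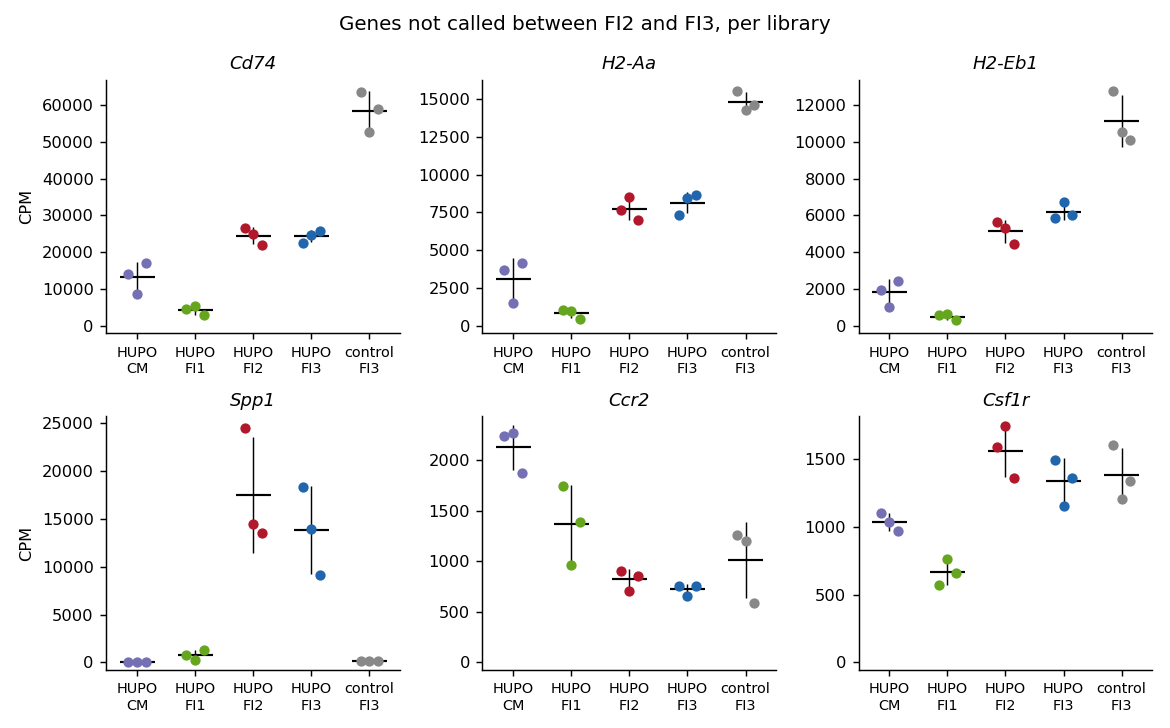
CPM per library (points), mean and SD (lines) of Cd74, H2-Aa, H2-Eb1, Spp1, Ccr2 and Csf1r in the same 5 groups, n = 3 each. FI2 and FI3 of HUPO mice lie close together, while FI1 and control FI3 lie on either side for the MHC class II genes and both lie far below for Spp1.

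Cflar (chromosome 1, 58711311 to 58758884), the caspase-8 inhibitor gene that was floxed, was at 122, 83.9 and 96.5 CPM in FI2 and 30.3, 43.6 and 73.3 in FI3. The libraries did not overlap, and the difference was not called (2.06-fold, adjusted p = 0.857 over 39 libraries and 0.716 with the block). Reads from exons that cre leaves in place are counted too, and the level is no check of the deletion. Itgax (chromosome 7, 128129526 to 128150657), encoding CD11c, was at 24.1, 7.08 and 1.24 CPM in FI2 and 56.2, 71.3 and 155 in FI3, 8.71-fold lower in FI2 without overlap and without a call (adjusted p = 0.724 and 0.847). FI1 had no Itgax counts, and control FI3 was at 219.9 ± 65.0 CPM. Emr1 (now Adgre1, chromosome 17, 57358581 to 57483529), encoding the sort marker F4/80, was at 323, 532 and 602 CPM in FI2 and 235, 138 and 203 in FI3 (2.53-fold, adjusted p = 0.361 and 0.17). Of 27 genes of death receptor signalling and apoptosis, 3 were higher and 1 lower without overlap and none was called.

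Of the markers of other cells, fibroblast genes stood apart in 1 library by their summed level. Of 15 fibroblast markers tested, 3 were higher and none lower in FI2 without overlap (median log2 fold change 2.985), and none was called. Their summed level was 3563 CPM in FI2 of the third animal and 301.6 to 550.3 in the other 5 libraries, and Prg4, the lubricin gene of synovial fibroblasts, made up 2398 CPM of it. The part of fibroblast RNA in the values of that library, or of the other 5, was not tested. T cell markers summed to 137 to 486 CPM in FI2 and 201 to 488 in FI3, and endothelial, erythroid and muscle markers to at most 152 CPM in every library. B and plasma cell markers summed to 47.4 to 95.8 CPM in FI2 and 0 to 18.5 in FI3, and NK cell markers to 5.20 to 11.7 in FI2 and 0 in FI3. Platelet markers had the other order, at 23.3 to 33.5 CPM in FI2 and 78.5 to 184 in FI3. Eosinophil markers were at 0 to 7.04 CPM in FI2 and 27.9 to 175 in FI3. The part of these cells in the other results was not tested.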

How the data were processed

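The authors deposited raw read counts for 23337 gene symbols, in a separate table for each library. Per the labels, RNA of more than 400 sorted cells was amplified with SMART-Seq v4 and sequenced as single 75 bp reads, and the submitters' processing notes name mm10, FastQC, STAR, HTSeq and Cufflinks. No strand-specific step is named. The design text says that low-quality or poorly correlated samples were removed before deposit. Counts were fitted with edgeR 4.0.16 (R 4.3.3): expression filter on 13 groups, TMM, trended dispersion, robust quasi-likelihood, all 39 libraries, 2-sided tests. The pairing comes from the animal numbers in the sample titles, read as the animal, which the labels do not spell out. FI2 and FI3 libraries of the same number deviated together weakly (correlations 0.0908, 0.0118 and 0.0107 over 4806 genes). Pairs of unlike number were at -0.0621 to 0.0393, so 2 of the 3 matched values lay within that range. The paired fit added the animal as a block to 15 HUPO ankle libraries, leaving 7 residual degrees of freedom. Alternatives included DESeq2 1.42.0. The scripts were tested on simulated data with no animal effect and a far smaller dispersion than the median of 2.29 fitted here. That test does not show how the fits behave at the spread of these libraries. Members and lists (28 pathway and 13 marker lists, 737 entries, 5 unmatched) were chosen with earlier results of these data known. Named genes were Cflar, Itgax, Emr1 and up to 10 genes each way and 4 per list among genes called over 39 libraries, which added Ly6c2. The other genes were chosen after their values were seen. P-values rest on a spread between libraries that is shared over the 13 groups, or over the 15 HUPO ankle libraries, and moderated across genes. They do not measure the spread of the 3 FI2 and 3 FI3 libraries alone. Counting intervals cover counting error only.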

Additional observations from a re-analysis of the deposited data

How the results depend on the processing

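Ly6c2 kept its direction under every alternative run, with a log2 fold change of 3.85 to 4.35, and lost its call in the replicate block fit of only the 6 libraries (adjusted p = 0.105) and without both libraries of the second animal. The number of called genes (1, with 1 higher and 0 lower in FI2) became 3, 3 and 0 with RLE scaling, 6, 3 and 3 with at least 10 counts in 3 of the 6 libraries, 844, 296 and 548 with DESeq2, 5, 4 and 1 in a fit of only the 6 libraries, and 18, 8 and 10 in a fit of the 15 HUPO ankle libraries. With the replicate block it was 28, 16 and 12 in the 15 libraries and 1, 1 and 0 in the 6. Leaving out libraries gave 0 to 8 called genes, 0 to 2 higher and 0 to 6 lower. The highest count came without FI2 of the first animal, the lowest without the second animal. The cause of these shifts was not tested. In alternatives chosen after seeing the data, the blocked fit of 15 libraries gave 25 to 27 genes, all among the 28, under RLE or other filters, but 4 to 16 without 1 library (3 to 7 higher, 1 to 10 lower), with 4 without FI3 of the first animal, 5 without FI2 of the second or FI3 of the third, 7 (6 among the 28) without FI3 of the second, 12 (8 among the 28) without FI2 of the third and 16 (9 among the 28) without FI2 of the first. The fits with 4 or 5 calls held no gene outside the 28. Genes without a call changed sign or reached 0 as follows. Cd74 was at -0.0057 with the block, and -0.069 to 0.163 without 1 or 2 libraries. Top2a was at -1.05 with the block in 6 libraries, and -1.36 to 1.96 in the fits without libraries. The same fits gave -0.11 to 0.071 for H2-Aa, -5.81 to 3.83 for Mki67, -0.54 to 4.10 for Prg4, -0.76 to 0.18 for Nfatc1, -0.51 to 0.16 for Tnfrsf11a, -9.10 to 2.08 for Lyve1, -9.09 to 0 for Vsig4 and 0 to 8.78 for Cxcr2. The fold changes of genes near 0 in 1 subset rest on few counts in that subset.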

Other observations

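Metabolic and structural lists were mostly even. Of 20 oxidative phosphorylation genes none was higher and 2 were lower in FI2 without overlap, and of 23 genes of glycolysis and the hypoxia response 1 was higher and none lower. None of 15 MHC class I genes separated the subsets. Of 20 lipid-associated macrophage genes, 1 was higher and 6 were lower in FI2 without overlap (median log2 fold change -0.17). Over all genes tested these shares were 5.50% and 6.77%. Cd63, given above, was the only gene of this list that was called, and it was lower in FI2. Lpl, encoding lipoprotein lipase, was at 334, 141 and 391 CPM in FI2 and 1134, 754 and 784 in FI3, and the tetraspanin gene Cd9 at 1455, 1341 and 1363 against 2390.4, 2520.3 and 2523. Plin2, a lipid droplet coat protein gene, had the other order, at 2128, 2080.3 and 1947 CPM against 1561, 1141 and 712. None of the 3 was called (adjusted p = 0.249 for Lpl, 0.538 for Cd9 and 0.528 for Plin2).

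The protease inhibitor genes Slpi and Timp2 differed in opposite directions without a call. Slpi, a secreted inhibitor of neutrophil elastase, was at 354, 277 and 342 CPM in FI2 and 68.2, 84.1 and 23.1 in FI3 (adjusted p = 0.306). Timp2, an inhibitor of matrix metalloproteinases, was at 188, 118 and 137 CPM against 661, 308 and 396 (adjusted p = 0.146). Hmox1, encoding the haem-degrading enzyme haem oxygenase 1, was at 1896 ± 379 and 950.1 ± 222 CPM, and the survival gene Bcl2l1 at 108 ± 23.9 and 29.5 ± 9.83 CPM, each without overlap (adjusted p = 0.79 and 0.691).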
